A study of Mus musculus with 242 samples.

Results

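The livers described here came from female B6C3F1 mice that inhaled methylene chloride at the highest concentrations of its dose series, 3000 and 4000 ppm, and from mice that breathed air. The arrays were chosen by their titles: 4 arrays at 3000 ppm, 4 arrays at 4000 ppm and the 5 arrays of the air control set ACO4, which makes 13 of the 242 arrays of the series. The series exposed mice to 26 chemicals and measured liver RNA on 1-colour Affymetrix Mouse430_2 arrays. Methylene chloride was also given at 100, 500 and 2000 ppm, with 4 arrays each. All mice of these groups were 5 weeks old at the start and 18 weeks old at the end of 13 weeks of exposure, which ran for 6 hours a day on 5 days a week in air as the vehicle. B6C3F1 is a hybrid of the C57BL/6 and C3H inbred strains. The right, caudate and median lobes of each liver were minced together, so each array reports bulk RNA of 1 mouse, and fewer cells of a type cannot be told apart from less RNA per cell. The hour of the day at which livers were taken is not given in the sources used here, nor is which of the air control sets ACO3, ACO4 and ACO5 was kept alongside the methylene chloride mice.

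Methylene chloride (dichloromethane) is a volatile solvent that the liver handles by oxidation through the cytochrome P450 Cyp2e1, which releases carbon monoxide, and by conjugation to glutathione through theta-class transferases such as Gstt1, which releases formaldehyde. Much of the liver's RNA follows a daily clock, in which the activators Arntl (Bmal1), Clock and Npas2 drive the Per and Cry genes that repress them, while the Nr1d and Ror receptors act on Arntl itself. The clock also drives Dbp and Tef, factors that activate genes with D-box elements, and their repressor Nfil3. Mouse liver differs between the sexes in many enzymes of drug and steroid metabolism, and the growth hormone pattern acting through Stat5b sets much of that difference.

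The summed signal of the 11 measured hepatocyte markers lay between 509188 and 752505 in the controls, between 593881 and 698608 at 3000 ppm and between 511962 and 630125 at 4000 ppm. None of them was called at either dose, which does not check the tissue of a single array. Of the 11 differences, 3 were above 0 at 3000 ppm (median -0.05) and 0 at 4000 ppm (median -0.27), where the median over all genes was 0.02. ACO3 and ACO5 against ACO4 also had 0 of 11 above 0, with medians of -0.26 and -0.32. The scaled array signal had a median of 98.1 to 117 over probe sets on the treated arrays and of 86.7 to 102 on the control arrays. RNA integrity numbers, where given, were 8.9 to 9.1 in the controls and 9.1 to 9.3 in the treated groups. Within a group an array's median correlation with its fellows was 0.960 to 0.964 in the controls, 0.946 to 0.952 at 3000 ppm and 0.951 to 0.955 at 4000 ppm. The treated arrays thus correlated less among themselves. With 1 array per mouse, array noise and differences between mice cannot be told apart. Replicate 2 at 3000 ppm had a lower median correlation with its own group, 0.946, than with all the other arrays compared, 0.954. One control array, replicate 4, carried the most lung transcripts: the summed signal of 11 lung markers was 35163 on it, while the median of the control set was 1514 and the treated arrays lay between 619 and 1414. The excess over the treated arrays was thus not confined to replicate 4. The median correlation of replicate 4 with its fellows was 0.962, within the range of the control set. Its lung sum was far above that median. Its Saa1 signal of 29439 was also far above the 2520 to 4993 of the other controls. Single arrays of the control sets ACO3 and ACO5 also carried lung transcripts, with highest sums of 11196 and 6903.

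Each dose was compared with the controls over 18193 genes, and a gene was called when its Benjamini-Hochberg adjusted p from limma was under 0.05 and its fold was at least 1.5. The difference is given on the log2 scale of signal plus 17.3, with the standard error of the fit after ±, for 4 treated against 5 control arrays. At 3000 ppm 554 genes, 3.05% of those tested, were called, with 275 higher (1.51%) and 279 lower (1.53%). At 4000 ppm 531 genes, 2.92%, were called, with 214 higher (1.18%) and 317 lower (1.74%). Both comparisons use the same 5 control arrays, so they are given side by side and not as support for each other. Control set ACO5 against ACO4 gave 23 called genes, 0.126%, and ACO3 against ACO4 gave 0, with 907 genes at an unadjusted p under 0.05 by limma. Where a call is said below to be lost in some of its alternatives, these are other normalisations, constants, array sets and control sets and the fits without 1 array. The fit draws its spread from all 134 arrays of the run. When it was restricted to the arrays compared, 20 genes were called at 3000 ppm and 34 at 4000 ppm. Of the genes named below, Sult3a1, Asns, Psat1, Nat8f5, Slc22a26, Lonrf3 and Serpina12 stayed called at 3000 ppm in that restricted fit. At 4000 ppm, Dbp, Per3, Npas2, Sult3a1, Cyp3a16, Cyp2b13, Asns, Loxl4, Lonrf3, Chka, Ccng1, Lgr5 and Serpina12 did.

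**Figure D1:**
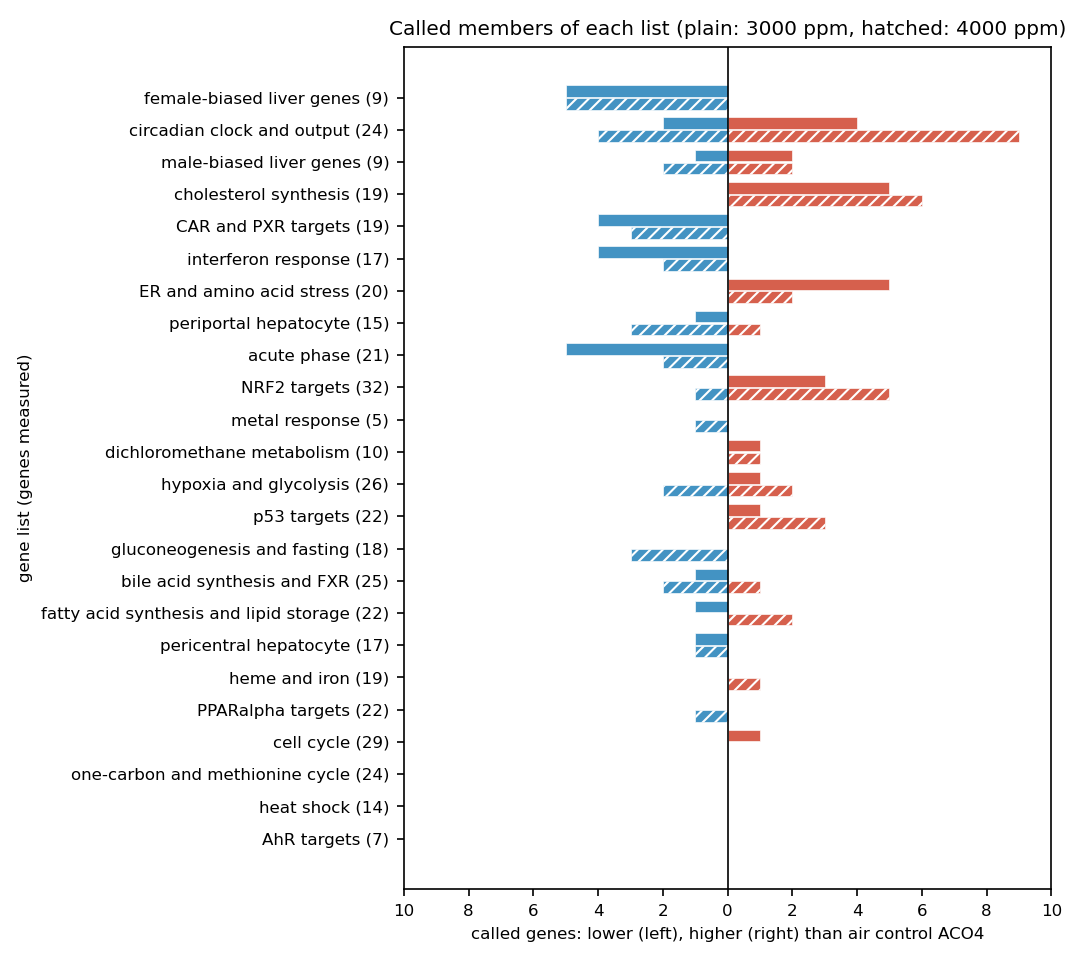
Called genes in each gene list at 3000 ppm (plain bars) and 4000 ppm (hatched bars), counted to the right when higher and to the left when lower than air control ACO4, with the number of measured genes in brackets. The clock list has the most called genes at 4000 ppm, 9 higher and 4 lower of 24, and the female-biased list has 5 lower of 9 at both doses. Of all genes, 3.05% were called at 3000 ppm and 2.92% at 4000 ppm.

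The circadian clock gave the most called genes of the functional lists at 4000 ppm. Of its 24 measured members, 6 were called at 3000 ppm, with 4 higher and 2 lower, and 13 at 4000 ppm, with 9 higher and 4 lower. Over all genes, 3.05% were called at 3000 ppm and 2.92% at 4000 ppm. The list's median difference was 0.20 at 3000 ppm and 0.33 at 4000 ppm, against 0.05 and 0.02 over all genes. The called genes described below were Dbp, Tef, Per2, Per3, Ciart, Nr1d2, Bhlhe40, Usp2 and Wee1, which were higher at 4000 ppm, and Arntl, Npas2, Nfil3 and Cry1, which were lower. Neither of the other air control sets had a called clock gene against ACO4.

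Among the output factors, Dbp changed most. Dbp, an activator of D-box genes, had signals of 106, 123, 133, 187 and 294 in the controls, of 416, 1198, 1008 and 2982 at 3000 ppm and of 4080, 2354, 2393 and 9983 at 4000 ppm. Every treated array lay above every control, while the treated groups overlapped each other. The difference was 2.68 ± 0.59 at 3000 ppm (adjusted p = 0.0016) and 4.48 ± 0.59 at 4000 ppm (adjusted p = 9.3e-09), a 22.3-fold rise. The second Dbp probe set gave 3.04 and 4.85. Tef, the related D-box activator, had signals of 956, 788, 1110, 1142 and 1553 in the controls, of 1543, 2023, 1807 and 2617 at 3000 ppm and of 2825, 2123, 2360 and 4174 at 4000 ppm. The 4000 ppm arrays lay above all controls, and 1 array at 3000 ppm fell just inside the control range. Tef rose by 0.85 ± 0.20 (adjusted p = 0.0038) and 1.34 ± 0.20 (adjusted p = 4.2e-07). Hlf, the other D-box activator of the family, differed by 0.07 and 0.12 and was not called.

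The repressor Nfil3, which competes with those factors for the D-box, had signals of 2772, 3437, 3722, 2460 and 1974 in the controls, of 2316, 1881, 2257 and 1827 at 3000 ppm and of 1126, 1305, 1479 and 641 at 4000 ppm. Nfil3 overlapped the controls at 3000 ppm, with a difference of -0.44 (adjusted p = 0.18), and lay below every control at 4000 ppm. There it fell by 1.35 ± 0.19 (adjusted p = 1.7e-07).

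Of the activators, Npas2, a partner of Arntl that can stand in for Clock, fell furthest. Its signals were 145, 242, 287, 315 and 290 in the controls, 157, 129, 153 and 71.3 at 3000 ppm and 14.5, 64.9, 2.61 and 2.31 at 4000 ppm. All 4000 ppm arrays were below every other array of the 3 groups, and 3 of those signals were under the added constant of 17.3, so the log2 difference understates the ratio. Npas2 fell by 0.92 ± 0.24 at 3000 ppm (adjusted p = 0.011) and by 3.06 ± 0.24 at 4000 ppm (adjusted p = 2.0e-18). The call at 3000 ppm was lost without replicate 4 of that dose and with ACO3 as the control. A second, separate Npas2 probe set gave -0.28 and -1.44. Arntl, the obligate partner, had signals of 1499, 1429, 1146, 1013 and 1091 in the controls, of 672, 666, 615 and 457 at 3000 ppm and of 493, 521, 511 and 38.1 at 4000 ppm. No treated array reached a control, and replicate 4 at 4000 ppm was far below its fellows. Arntl fell by 1.01 ± 0.24 (adjusted p = 0.0044) and by 2.05 ± 0.24 (adjusted p = 3.4e-10), and without that array the difference at 4000 ppm was -1.24, with the call kept. At 3000 ppm the call was lost with ACO3 as the control, where the difference was -0.65, and with methylene chloride and ACO4 arrays alone. ACO4 has the highest mean Arntl signal of the run, 1221, against 946 in ACO3 and 1039 in ACO5. A dimmer second Arntl probe set gave 0.31 and 0.58 and was not called. Clock differed by -0.08 and -0.24 and was not called.

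**Figure D2:**
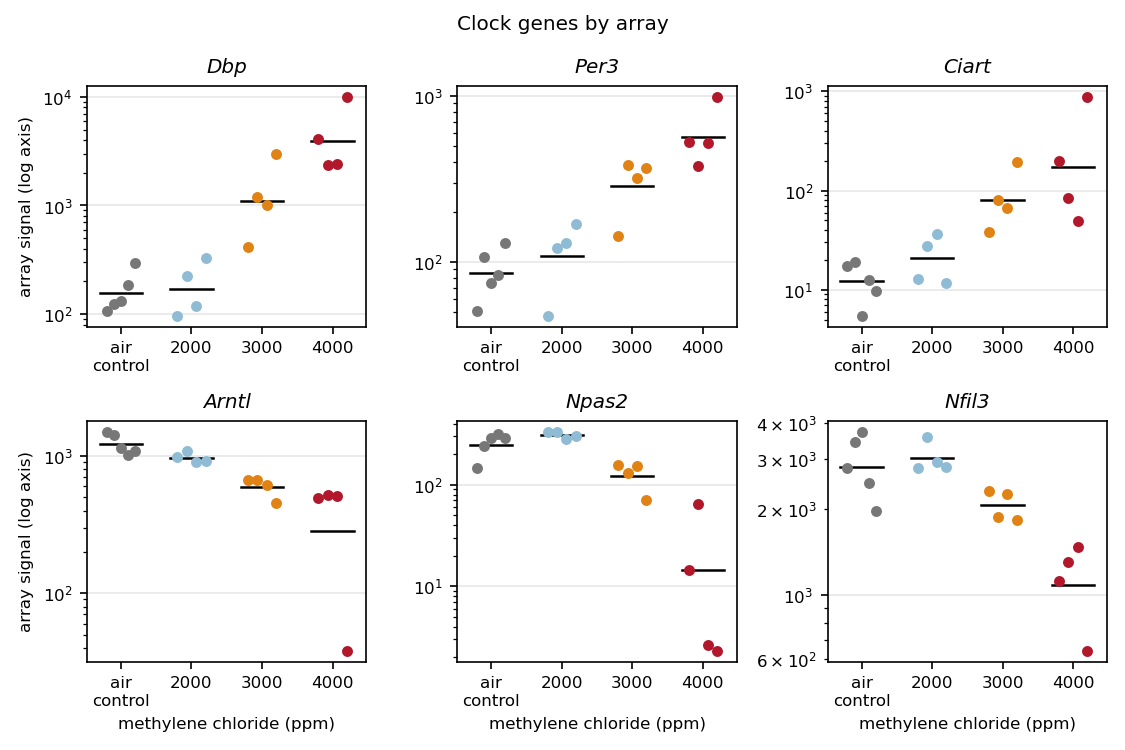
Array signal on a log axis for 6 clock genes in the air controls and at 2000, 3000 and 4000 ppm methylene chloride, 1 point per array, with the geometric mean of each group as a line. Dbp, Per3 and Ciart sit above all controls at both high doses, Arntl sits below all controls at both, and Npas2 and Nfil3 sit below all controls at 4000 ppm.

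The feedback repressors moved in both directions. Per3 had signals of 50.5, 107, 75, 83.3 and 130 in the controls, of 144, 385, 319 and 370 at 3000 ppm and of 525, 380, 523 and 985 at 4000 ppm. All treated arrays lay above all controls, and Per3 rose by 1.56 ± 0.44 (adjusted p = 0.019) and 2.51 ± 0.44 (adjusted p = 2.3e-05). The rise at 3000 ppm lost its call without replicate 2, 3 or 4 of that dose and without control replicate 1. Per2 had signals of 83.7, 124, 78.6, 116 and 96.3 in the controls and of 464, 183, 348 and 555 at 4000 ppm, with no overlap, and it rose by 1.70 ± 0.35 there (adjusted p = 4.2e-04). At 3000 ppm its signals of 75.7, 267, 197 and 195 overlapped the controls and the difference of 0.69 was not called. Per1 overlapped the controls at both doses, with differences of 0.11 ± 0.68 and 0.70 ± 0.68. Ciart (Chrono), a repressor that acts on Arntl and Clock, was near the bottom of the range in the controls, with signals of 17.2, 19.1, 5.46, 12.6 and 9.78. It reached 37.9, 79.7, 66.9 and 192 at 3000 ppm and 198, 84.1, 49.2 and 878 at 4000 ppm, all above the controls, and rose by 1.73 ± 0.42 (adjusted p = 0.0049) and 2.67 ± 0.42 (adjusted p = 1.6e-06). The rise at 3000 ppm lost its call without replicate 4 of that dose. Cry1 ran the other way: it fell by 1.13 ± 0.29 at 4000 ppm (adjusted p = 0.0083), with signals of 485, 470, 259 and 151 against 340 to 966 in the controls, an overlap of 2 arrays and a call lost without replicate 4. Cry2 was not called.

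Nr1d2, Bhlhe40, Usp2 and Wee1 were called at 4000 ppm and not at 3000 ppm, which does not show that the doses differ. Nr1d2 (Rev-erb beta) rose by 1.56 ± 0.48 (adjusted p = 0.039), the E-box repressor Bhlhe40 by 0.88 ± 0.28 (adjusted p = 0.045), and the deubiquitinase Usp2 by 1.87 ± 0.59 (adjusted p = 0.043). The cell cycle kinase Wee1 rose 2.83-fold (adjusted p = 0.011). Of 19 alternatives the call was lost in 10 for Nr1d2 and Bhlhe40, in 11 for Usp2 and in 4 for Wee1. Of these, Bhlhe40 alone had 4000 ppm arrays that all lay above the controls, at 2667 to 5398 against 1254 to 2279. Nr1d1 (Rev-erb alpha) had signals of 471, 428, 692, 551 and 1229 in the controls, of 1055, 1594, 1626 and 1864 at 3000 ppm and of 1062, 1401, 1476 and 1603 at 4000 ppm. Only the highest control reached the treated range, but Nr1d1 varies widely across the run, and its differences of 1.24 ± 0.75 and 1.11 ± 0.75 were not called (adjusted p = 0.36 and 0.47). Without replicate 4 at 4000 ppm, the array with the highest Dbp and lowest Arntl, 8 clock genes were called at that dose in place of 13. At 3000 ppm 3 were called without replicate 4 of that dose in place of 6.

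**Figure D3:**
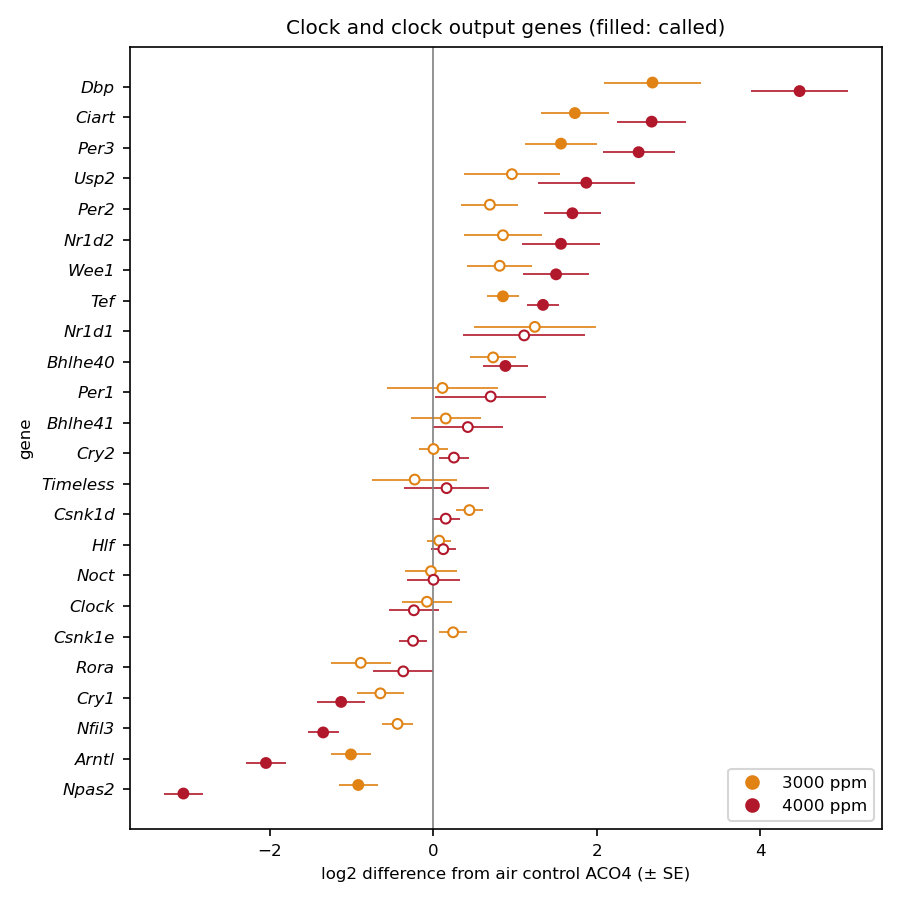
Log2 difference from air control ACO4 with its standard error for the 24 measured clock genes at 3000 and 4000 ppm, in order of the 4000 ppm value, with filled points for called genes. Npas2 and Arntl lie furthest to the left at 4000 ppm and Dbp furthest to the right at 4.48.

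Group means of these genes were also set beside those of the 30 other groups of the same array run, which include other chemicals, vehicles and routes. The mean Dbp signal was 1111 at 3000 ppm and 3895 at 4000 ppm, while the other groups lay between 39.2 and 358. Ciart stood at 81.2 and 173 against 12.4 to 45.9, Per3 at 286 and 567 against 37.7 to 152, and Tef at 1961 and 2773 against 896 to 1666. Below the range of all others, Npas2 stood at 123 and 14.5 against 176 to 383, Arntl at 596 and 282 against 748 to 1221, Nfil3 at 2059 and 1088 against 2326 to 4584, and Cry1 at 438 and 309 against 494 to 1244. Nr1d1, although not called, was also above the other 30 groups at both doses, at 1503 and 1370 against 189 to 982. Within the range of the other groups at both doses were Clock, Hlf, Bhlhe41, Rora, Csnk1d, Timeless, Noct and Wee1. Of these, Wee1 alone was called at 4000 ppm. Per1, Per2, Cry2 and Usp2 were within the range at 3000 ppm and above it at 4000 ppm. The hour of collection relative to exposure and light could move with dose, and its part in these values was not tested.

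The clock differences separated the high doses from 2000 ppm. The mean of 3000 and 4000 ppm against 2000 ppm gave 33 called genes, 0.181% of those tested, with 11 higher (0.0605%) and 22 lower (0.121%), and 8 of them were on the clock list. Dbp was higher by 3.47 ± 0.54 (adjusted p = 9.7e-06), Ciart by 1.84 ± 0.38 (adjusted p = 0.0049), Per3 by 1.75 ± 0.40 (adjusted p = 0.024) and Tef by 0.81 ± 0.18 (adjusted p = 0.019). Npas2 was lower, with a difference of -2.30 ± 0.22 (adjusted p = 1.7e-13), as were Arntl at -1.20 ± 0.22 (adjusted p = 5.9e-04), Cry1 at -1.09 ± 0.27 (adjusted p = 0.044) and Nfil3, 1.99-fold lower (adjusted p = 3.4e-04). Of 19 alternatives the call was lost in 12 for Cry1, 9 for Per3 and 8 for Tef, and for Ciart in 5 of 18. At 2000 ppm the Npas2 signals were 331, 332, 283 and 301, at the upper end of the control range of 145 to 315 or just above it, and the mean Dbp signal of 172 was close to the control mean of 158. In the fit restricted to the arrays of methylene chloride and ACO4, 2 clock genes were called in this comparison, and with only the groups compared none was called.

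**Figure D4:**
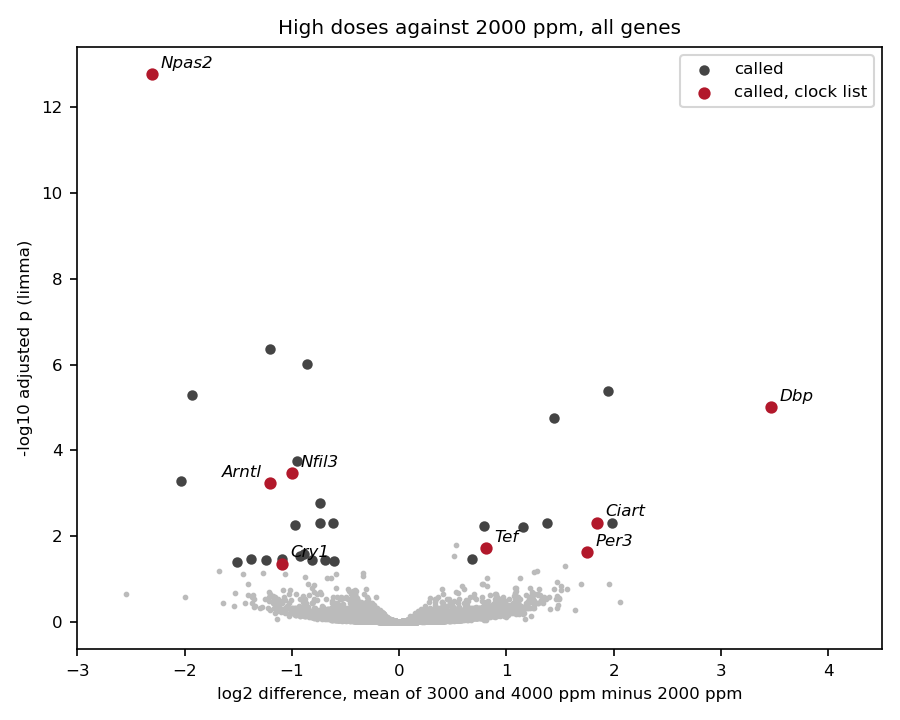
Log2 difference between the mean of the high doses and 2000 ppm (x axis) against -log10 of limma's adjusted p (y axis) for all 18193 genes, with called genes dark and called clock genes red and named. Npas2 has the lowest adjusted p and Dbp the largest rise.

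Between the high doses themselves, 27 genes were called for 4000 against 3000 ppm, 0.148% of those tested, with 7 higher (0.0385%) and 20 lower (0.11%). The clock genes among them were Npas2, with a difference of -2.14 ± 0.26 (adjusted p = 5.3e-09), and Nfil3, with -0.91 ± 0.21 (adjusted p = 0.024), a call lost in 6 of 15 alternatives. Arntl missed the threshold at -1.03 ± 0.26 (adjusted p = 0.060) but passed it in 7 of 15 alternatives, over which its difference ranged from -1.32 to -0.22, the last without replicate 4 at 4000 ppm. Dbp was not called at 1.79 ± 0.62 (adjusted p = 0.20).

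The start regions of the called clock genes are shown because clock factors act through short elements near the start site. RefSeq promoter sequences (build GRCm38.p6, 250 bases before to 50 after the start) were matched for 10 of the 13 clock genes called at 4000 ppm, and both strands were searched. The E-box CACGTG was found in 3 of the 10 (Cry1, Tef and Ciart), against 8.09% of 27025 genes. The D-box TTANGTAA was found in 1, Per3, against 2.72%, and the ROR element TAGGTCA or TGGGTCA in 2, Arntl and Nfil3, against 7.35%. A match is a run of letters and not evidence of binding. The sequences below run 5′ to 3′ on the gene's strand, and capitals mark these elements: 3 E-boxes in Ciart (chr3:95882179-95882478, minus strand), 2 D-boxes in Per3 (chr4:151044616-151044915, minus strand), and 1 ROR element each in Arntl (chr7:113207261-113207560, plus strand) and Nfil3 (chr13:52980990-52981289, minus strand, where the letters are those of the reverse strand).
Ciart: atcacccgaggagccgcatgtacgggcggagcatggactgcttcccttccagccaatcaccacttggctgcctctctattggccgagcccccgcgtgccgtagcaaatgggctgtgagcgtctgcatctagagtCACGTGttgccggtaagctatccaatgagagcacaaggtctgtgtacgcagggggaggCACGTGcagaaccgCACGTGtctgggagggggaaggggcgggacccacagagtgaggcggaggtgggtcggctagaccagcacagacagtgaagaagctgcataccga
Per3: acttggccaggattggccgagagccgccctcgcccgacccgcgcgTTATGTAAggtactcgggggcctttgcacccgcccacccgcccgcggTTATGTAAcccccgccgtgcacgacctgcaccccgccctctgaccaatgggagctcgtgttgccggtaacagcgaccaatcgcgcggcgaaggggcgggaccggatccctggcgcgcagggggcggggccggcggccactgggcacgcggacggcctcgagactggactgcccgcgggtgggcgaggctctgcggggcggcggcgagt
Arntl: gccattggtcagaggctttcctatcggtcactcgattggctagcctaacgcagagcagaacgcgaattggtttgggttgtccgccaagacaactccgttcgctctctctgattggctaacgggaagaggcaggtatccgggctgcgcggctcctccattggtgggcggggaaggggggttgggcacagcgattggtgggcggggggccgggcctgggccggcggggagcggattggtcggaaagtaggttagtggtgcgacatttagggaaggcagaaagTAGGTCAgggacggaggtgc
Nfil3: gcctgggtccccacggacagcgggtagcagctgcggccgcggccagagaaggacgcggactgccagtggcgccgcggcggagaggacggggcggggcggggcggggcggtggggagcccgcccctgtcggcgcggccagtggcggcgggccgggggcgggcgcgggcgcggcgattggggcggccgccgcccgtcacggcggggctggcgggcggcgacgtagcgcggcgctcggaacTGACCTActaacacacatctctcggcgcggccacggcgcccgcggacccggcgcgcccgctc
The called genes with the E-box included Ciart and Tef, which rose, and Cry1, which fell. The genes with the ROR element, Arntl and Nfil3, both fell.

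Of 9 measured female-biased liver genes, 5 fell and none rose at 3000 ppm and likewise at 4000 ppm, and the list's median difference was -1.57 and -1.98. Among all genes, 1.53% fell at 3000 ppm and 1.74% at 4000 ppm. Sult3a1, a sulfotransferase expressed mainly in female liver, had signals of 9054, 11086, 7992, 19640 and 11689 in the controls. They were 228, 559, 335 and 448 at 3000 ppm and 133, 834, 336 and 47.2 at 4000 ppm. No treated array came near a control, and the fall was 29-fold at 3000 ppm (-4.86 ± 0.46, adjusted p = 5.2e-14) and 48.7-fold at 4000 ppm (-5.60 ± 0.46, adjusted p = 1.4e-17). Cyp2b13, a female-pattern steroid hydroxylase, had signals of 13638, 8380, 8724, 6908 and 8725 in the controls, of 3548, 1312, 2592 and 1499 at 3000 ppm and of 957, 3327, 1560 and 759 at 4000 ppm. Its groups did not overlap the controls, and it fell by 2.12 ± 0.25 (adjusted p = 1.3e-09) and 2.68 ± 0.25 (adjusted p = 1.1e-14).

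The P450 Cyp3a16 had signals of 154, 236, 228, 1211 and 366 in the controls, and its highest treated signal was 76.5. It fell by 3.20 ± 0.80 (adjusted p = 0.0067) and 3.87 ± 0.80 (adjusted p = 4.7e-04). With control set ACO5 in place of ACO4 both calls were lost, and with ACO3 the call at 3000 ppm was. Cyp3a44 fell by 1.57 ± 0.36 (adjusted p = 0.0028) and 1.98 ± 0.36 (adjusted p = 5.0e-05). Cyp2b9 moved least, from 15347 to 20015 in the controls to 9486 to 14547 at 3000 ppm, a fall of 0.65 ± 0.14 (adjusted p = 8.1e-04), and its fall of 0.61 ± 0.14 at 4000 ppm (adjusted p = 0.0015) lost its call in 9 of 19 alternatives. Close relatives in the Cyp2b and Cyp3a families may share probes, so the values of single members are uncertain. At 4000 ppm, replicate 2 had the highest signal of its group for Sult3a1, Cyp2b13, Cyp3a44 and Cyp2b9. Sult2a2 had differences of -2.32 ± 0.80 and -1.98 ± 0.80 that were not called (adjusted p = 0.070 and 0.15).

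At 2000 ppm Sult3a1 and Cyp2b13 also lay below every control, with mean signals of 222 and 2902, and none of the 9 was called between the high doses and 2000 ppm. Slc22a26, an organic anion transporter family member outside these lists, had signals of 2906, 2980, 1855, 3753 and 2939 in the controls, of 454, 517, 403 and 287 at 3000 ppm and of 238, 1144, 465 and 304 at 4000 ppm. It fell by 2.74 ± 0.23 (adjusted p = 1.8e-16) and 2.61 ± 0.23 (adjusted p = 9.9e-16). It was also lower than at 2000 ppm, with a difference of -0.92 ± 0.21 (adjusted p = 0.029) whose call was lost in 8 of 19 alternatives. Its group means of 406 and 445 were below the 820 to 4619 of the 30 other groups, of which methylene chloride at 2000 ppm was the lowest.

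Male-biased genes moved in both directions. Of 9 measured, 2 rose and 1 fell at 3000 ppm, and 2 rose and 2 fell at 4000 ppm, with medians of -0.12 and -0.26. The shares of all genes called were 3.05% and 2.92%. Cyp2d9, a male-pattern steroid hydroxylase, rose by 1.35 ± 0.30 (adjusted p = 0.0019) and 1.28 ± 0.30 (adjusted p = 0.0029), with 2353 to 7373 in the controls and 9258 to 13404 at 3000 ppm. At 4000 ppm 1 array, at 5209, lay within the control range, and both calls were lost with ACO5 as the control. Cyp4a12a, a fatty acid hydroxylase of male liver, rose by 1.93 ± 0.62 (adjusted p = 0.046) and 2.29 ± 0.62 (adjusted p = 0.013). Its 107 to 278 at 3000 ppm and 109 to 452 at 4000 ppm lay above the 11.5 to 74.9 of the controls, but the call was lost in 14 of 19 alternatives at 3000 ppm and in 5 at 4000 ppm, with ACO3 and with ACO5 as the control in both cases. Its mean signal was 710 at 2000 ppm, above both high doses, a difference of -1.54 that was not called (adjusted p = 0.44). Serpina12 (vaspin), a serpin linked to insulin sensitivity, fell by 2.13 ± 0.34 (adjusted p = 3.8e-06) and 2.07 ± 0.34 (adjusted p = 3.9e-06), from 1066 to 2007 in the controls to 282 to 461 over the 8 treated arrays.

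The transcription factors that carry the growth hormone signal, Stat5a and Stat5b, were named after their values were seen. Stat5a had signals of 633, 696, 931, 878 and 706 in the controls, of 1075, 440, 771 and 669 at 3000 ppm and of 366, 495, 207 and 235 at 4000 ppm. It fell at 4000 ppm by 1.26 ± 0.22 (adjusted p = 2.3e-05), differed by -0.11 ± 0.22 at 3000 ppm, and the difference between doses was -1.15 ± 0.23 (adjusted p = 0.0087). Stat5b fell by 0.69 ± 0.13 at 4000 ppm (adjusted p = 1.7e-04) and differed between doses by -0.60 ± 0.14 (adjusted p = 0.034). Of 15 alternatives the call between doses was lost in 5 for Stat5a and in 10 for Stat5b.

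**Figure D5:**
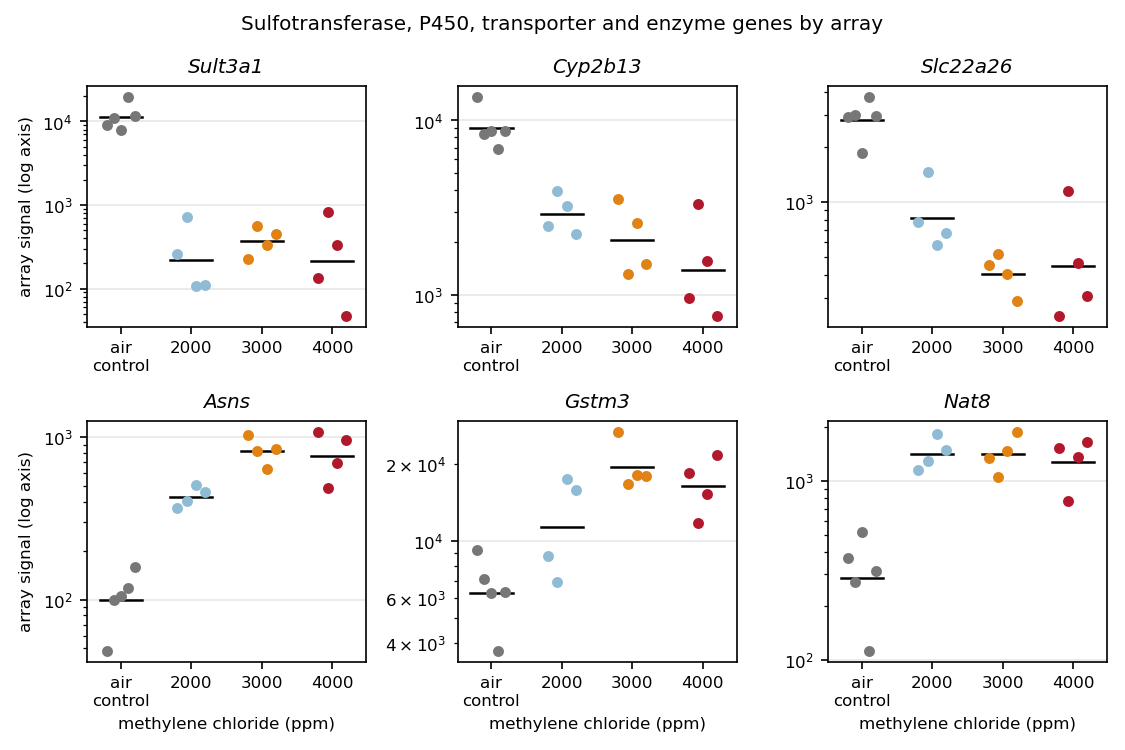
Array signal on a log axis for 6 genes in the air controls and at 2000, 3000 and 4000 ppm, 1 point per array, with the geometric mean as a line. Sult3a1, Cyp2b13 and Slc22a26 lie below all controls and Asns, Gstm3 and Nat8 above all controls at 3000 and 4000 ppm, and 5 of the 6, all but Gstm3, lie outside the control range at 2000 ppm as well.

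Of 20 genes of endoplasmic reticulum and amino acid stress, 5 rose at 3000 ppm and 2 at 4000 ppm, with list medians of 0.15 and 0.01. The shares of all genes that rose were 1.51% and 1.18%. Asns, which makes asparagine, had signals of 48.4, 99.8, 105, 118 and 158 in the controls, of 1032, 826, 641 and 843 at 3000 ppm and of 1082, 489, 690 and 961 at 4000 ppm. It rose by 2.84 ± 0.35 (adjusted p = 2.9e-09) and 2.75 ± 0.35 (adjusted p = 3.9e-09), with no overlap, and a second probe set gave 4.49 and 4.56. Psat1, a transaminase of serine synthesis, rose from 23.3 to 45 in the controls to 175 to 384 at 3000 ppm and 121 to 396 at 4000 ppm, by 2.56 ± 0.46 (adjusted p = 7.6e-05) and 2.01 ± 0.46 (adjusted p = 0.0019). The means of Asns (824 and 770) and Psat1 (287 and 190) were above all 30 other groups, whose highest were 465 and 152. For both genes that highest group was methylene chloride at 500 ppm. The stress regulators Atf4, Ddit3 and Trib3 and the chaperone Hspa5 were not called at either dose, with differences between -0.64 for Hspa5 at 4000 ppm and 0.62 for Trib3 at 3000 ppm. The other genes of the list called at 3000 ppm were the stress factors Atf3 (1.25 ± 0.35, adjusted p = 0.019) and Atf5 (0.62 ± 0.18, adjusted p = 0.025) and the endoplasmic reticulum protein Sdf2l1 (1.04 ± 0.32, adjusted p = 0.036). The Atf3 call was lost in 7 of 18 alternatives, ACO3, ACO5 and quantile normalisation among them, and the Atf5 call in 8 of 19, ACO3 among them. The Sdf2l1 call was lost in 12 of 19 and the difference was -0.15 with ACO3 as the control.

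The list of dichloromethane metabolism, which also holds alcohol and aldehyde dehydrogenases, gave 1 called gene at each dose. Of all genes, 3.05% were called at 3000 ppm and 2.92% at 4000 ppm. Of 10 measured genes of dichloromethane metabolism, Gstt2 alone was called, and it rose by 0.68 ± 0.16 (adjusted p = 0.0032) and 0.64 ± 0.16 (adjusted p = 0.0057). Both calls were lost without control replicate 4, and the 4000 ppm call also with ACO3 as the control. Gstt1, the transferase that conjugates dichloromethane, had signals of 19248, 18138, 20878, 14493 and 17655 in the controls, of 18234, 14221, 17744 and 16625 at 3000 ppm and of 13124, 13607, 13711 and 13557 at 4000 ppm. All 4000 ppm arrays were below all others, and the difference of -0.41 ± 0.10 had an adjusted p of 0.0044 but, at 1.33-fold, was below the fold required for a call. Cyp2e1 differed by -0.04 ± 0.15 and -0.17 ± 0.15 and was not called.

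Of 32 targets of NRF2, the factor that responds to electrophiles, 3 rose at 3000 ppm and 5 rose and 1 fell at 4000 ppm, with medians of 0.27 and 0.24 and 26 of 32 differences above 0 at each dose. Over all genes 1.51% and 1.18% rose, and the median differences were 0.05 and 0.02. Gstm3, a mu-class glutathione transferase, had signals of 9190, 7136, 6262, 3740 and 6314 in the controls, of 26618, 16640, 18046 and 17966 at 3000 ppm and of 18383, 11803, 15193 and 21538 at 4000 ppm. It rose without overlap by 1.63 ± 0.28 (adjusted p = 2.3e-05) and 1.38 ± 0.28 (adjusted p = 2.9e-04). Gstm2 rose by 1.10 and 1.00 and the epoxide hydrolase Ephx1 by 0.91 and 0.86 (adjusted p = 4.5e-07 and 1.0e-06). At 4000 ppm Gsta2 and the export pump Abcc2 also rose, by 1.22 and 0.72, and Osgin1 fell by 1.10 ± 0.26 (adjusted p = 0.0031). The Osgin1 call was lost with ACO3 as the control and the Gsta2 call in 7 of 19 alternatives. The classical targets Nqo1 (0.26 and 0.30), Hmox1 (0.55 and 0.44) and Gclc (0.07 and -0.10) were not called. An antioxidant response element, TGACNNNGC on either strand, was found in the promoter of 1 of the 6 called genes, Abcc2, against 14.0% of all genes.

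Of 19 genes of cholesterol synthesis, 5 rose at 3000 ppm and all 19 differences were above 0, with a median of 0.60, and at 4000 ppm 6 rose, 17 were above 0 and the median was 0.49. Across all genes 1.51% and 1.18% rose, with median differences of 0.05 and 0.02. Fdps, which makes farnesyl diphosphate, had signals of 6994, 7037, 5761, 2840 and 4015 in the controls, of 12523, 10776, 13311 and 11500 at 3000 ppm and of 16614, 6821, 13751 and 10352 at 4000 ppm. Its rise was 1.25 ± 0.27 (adjusted p = 0.0016) and 1.16 ± 0.27 (adjusted p = 0.0031), and 1 array at 4000 ppm lay within the control range. Squalene synthase Fdft1 rose by 0.71 and 0.82, squalene epoxidase Sqle by 1.04 and 1.25, and the demethylase Cyp51 by 0.63 and 0.75. With ACO3 as the control the calls of Fdft1, Sqle and Cyp51 at both doses and of Fdps at 4000 ppm were lost, and with ACO5 those of Fdft1 at both doses and of Sqle and Cyp51 at 3000 ppm. With ACO3 as the control set, 1 member was called at each dose, and with ACO5 1 at 3000 ppm and 5 at 4000 ppm. ACO3 itself had 17 of 19 differences above 0 against ACO4, with a list median of 0.25.

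In lipid and glucose metabolism the called list members are set beside 3.05% of all genes called at 3000 ppm and 2.92% at 4000 ppm. At 4000 ppm Acly, which makes cytosolic acetyl-CoA, rose by 0.96 ± 0.27 (adjusted p = 0.020) and the fatty acid receptor Cd36 by 1.47 ± 0.44 (adjusted p = 0.032), of 22 genes of lipid synthesis and storage, with calls lost in 5 and 8 of 19 alternatives. At 3000 ppm the carbohydrate sensor Mlxipl fell by 0.64 ± 0.17 (adjusted p = 0.014), a call lost in 9 of 19, ACO3 and ACO5 among them. Of 18 fasting and gluconeogenesis genes none was called at 3000 ppm and 3 fell at 4000 ppm. They were G6pc, the terminal enzyme of glucose release (-0.91 ± 0.23, adjusted p = 0.0061), Igfbp1 (-1.19 ± 0.37, adjusted p = 0.043) and the pyruvate dehydrogenase kinase Pdk4 (-1.31 ± 0.37, adjusted p = 0.019). Without replicate 4 at 4000 ppm all 3 calls were lost. At 3000 ppm 1 of 26 hypoxia and glycolysis genes was called, close to the share of all genes. That gene, Pgam1, rose at both doses, by 0.64 ± 0.11 (adjusted p = 5.0e-05) and 0.65 ± 0.11 (adjusted p = 1.4e-05). Its controls ran from 3649 to 5258 and the treated arrays from 6084 to 7269, but both calls were lost with ACO3, with ACO5 and with the control sets pooled. At 4000 ppm Pfkfb3 rose by 1.47 ± 0.37 (adjusted p = 0.0059) and Ndrg1 fell by 1.14 ± 0.24 (adjusted p = 5.4e-04). The Pfkfb3 call was lost with ACO3 and with ACO5.

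Of 21 acute phase genes, which hepatocytes secrete in inflammation, 5 fell at 3000 ppm and 2 at 4000 ppm, with medians of -0.37 and -0.25. Among all genes, 1.53% fell at 3000 ppm and 1.74% at 4000 ppm. Orm3, an orosomucoid, had signals of 562, 393, 499, 366 and 425 in the controls, of 198, 113, 16.6 and 28.6 at 3000 ppm and of 48.7, 151, 25 and 190 at 4000 ppm. It fell by 2.50 ± 0.32 (adjusted p = 1.2e-08) and fell by 2.22 ± 0.32 (adjusted p = 2.0e-07), without overlap. Saa1, a serum amyloid, fell by 2.22 ± 0.62 (adjusted p = 0.017) and 1.95 ± 0.62 (adjusted p = 0.045), but both calls were lost without control replicate 4, the array with the most lung transcripts, where the 4000 ppm difference was -1.35 (adjusted p = 0.23). The remaining controls, at 2520 to 4993, still lay above every treated array, at 840 to 2324. Without that control or without replicate 4 at 3000 ppm, the list's count at 3000 ppm was 1. Of 17 interferon response genes, 4 fell at 3000 ppm and 2 at 4000 ppm, beside the 1.53% and 1.74% of all genes, with medians of -0.43 and -0.24. The antiviral gene Rsad2 fell by 1.24 ± 0.29 (adjusted p = 0.0039) and 1.23 ± 0.29 (adjusted p = 0.0034) and Ifit1 by 1.11 ± 0.30 (adjusted p = 0.014) and 0.95 ± 0.30 (adjusted p = 0.045). The Ifit1 calls were lost in 4 and 13 of 19 alternatives, ACO3 and ACO5 among them at both doses.

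Of 22 p53 targets, 1 rose at 3000 ppm and 3 at 4000 ppm, with medians of 0.12 and 0.15. Among all genes, 1.51% rose at 3000 ppm and 1.18% at 4000 ppm. Ccng1 (cyclin G1) had signals of 1006, 1214, 979, 1010 and 1154 in the controls, of 1490, 1778, 1557 and 1642 at 3000 ppm and of 2208, 2700, 1896 and 2068 at 4000 ppm. The 3 groups did not overlap, and Ccng1 rose by 0.59 ± 0.13 (adjusted p = 0.0018) and 1.03 ± 0.13 (adjusted p = 2.6e-09), with the call at 3000 ppm lost in 8 of 19 alternatives. The difference between doses of 0.44 ± 0.14 was not called (adjusted p = 0.17). Its other probe sets were not called. The nuclease gene Aen rose by 0.96 ± 0.14 at 4000 ppm (adjusted p = 6.1e-07), where its signals of 671 to 1011 lay above the 283 to 491 of the controls, and Phlda3 by 0.72 ± 0.22 (adjusted p = 0.035), a call lost in 9 of 19. The cell cycle inhibitor Cdkn1a was not called, at 0.12 ± 0.49 and -0.85 ± 0.49. Of 29 cell cycle genes, Aurkb was called at 3000 ppm (1.52 ± 0.47, adjusted p = 0.038), with 3.9, 73.4, 125 and 86.8 against 2.99 to 14.9 in the controls, and none at 4000 ppm. The 1 call of 29 is close to the 3.05% of all genes called at 3000 ppm. The Aurkb call was lost in 15 of 18 alternatives. Mki67 and Ccnd1 were not called.

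Of the zonation and bile acid lists, the periportal list had the most members called at 4000 ppm, 4 of 15, with 1 higher and 3 lower. At 3000 ppm it had 1. Over all genes 3.05% were called at 3000 ppm and 2.92% at 4000 ppm. Lgr5, a receptor of pericentral hepatocytes, fell by 0.89 ± 0.19 (adjusted p = 9.3e-04) and 1.08 ± 0.19 (adjusted p = 2.0e-05), from 369 to 536 in the controls to 213 to 258 and 181 to 225. Both calls were lost with ACO3 as the control, and none of the other 16 pericentral genes, Glul and Cyp2e1 among them, was called. The antibody transporter Pigr, a periportal gene, fell by 0.89 ± 0.14 (adjusted p = 3.3e-06) and 0.78 ± 0.14 (adjusted p = 3.2e-05). The other periportal genes called at 4000 ppm were G6pc, given above, Hsd17b13, which rose, and Ctsc. Ctsc fell by 0.60 (adjusted p = 3.2e-04), a call lost in 6 of 19 alternatives. Of 25 bile acid genes, the export pump Abcb11 fell at 3000 ppm by 0.88 ± 0.26 (adjusted p = 0.026), a call lost in 7 of 19 alternatives. At 4000 ppm Akr1d1 rose by 0.95 and Cyp7b1 and Fgfr4 fell by 0.74 and 0.62, with calls lost in 13, 12 and 8 of 19, ACO3 and ACO5 among them for all 3 genes. Cyp7a1, the rate-limiting enzyme of bile acid synthesis, was not called at -1.16 ± 0.64 and 0.85 ± 0.64. No member was called at either dose among 24 one-carbon genes, 7 AhR targets, 14 heat shock genes and 11 oncofetal and tumour markers. Of 19 CAR and PXR targets none rose, and those that fell included Cyp2b9, Cyp2b13 and Cyp3a44, already counted above.

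Markers of other liver cells moved with dose in part. The shares of all genes called were 3.05% at 3000 ppm and 2.92% at 4000 ppm. The summed signal of 13 endothelial markers was 12486 to 13538 at 3000 ppm and 11652 to 14139 at 4000 ppm, below the 15385 to 17679 of the controls, and 1 marker was called at each dose. The scavenger receptor Stab2 fell at 3000 ppm by 0.62 ± 0.10 (adjusted p = 2.6e-06) and Flt1 at 4000 ppm by 0.69 ± 0.17 (adjusted p = 0.0066), with calls lost in 5 and 7 of 19 alternatives. Of 14 stellate and fibroblast markers Reln fell at both doses, by 0.90 ± 0.15 (adjusted p = 7.8e-06) and 0.79 ± 0.15 (adjusted p = 7.1e-05), and Pdgfrb at 4000 ppm by 0.98 ± 0.23 (adjusted p = 0.0027), a call lost without replicate 4 of that dose. No Kupffer cell and macrophage marker of 14 was called, and their sums were 17521 to 21479 at 3000 ppm and 17154 to 29937 at 4000 ppm against 23074 to 25202. Of their 14 differences from the controls, 2 were above 0 at 3000 ppm (median -0.29) and 11 at 4000 ppm (median 0.17). For 4000 against 3000 ppm all 14 were above 0, with a median of 0.28 against -0.02 over all genes. Of 4 erythroid markers, Alas2, the heme synthesis enzyme of red cell precursors, rose at 3000 ppm by 0.93 ± 0.25 (adjusted p = 0.012). The Alas2 call was lost in 5 of 19 alternatives. Among these were ACO5 as the control and the fits without replicate 3 or 4 at 3000 ppm or control replicate 4. The summed signal of the erythroid markers was 1349 to 1861 at 3000 ppm and 567 to 1601 at 4000 ppm against 638 to 1138 in the controls. Of 11 pancreas markers, Cpb1 rose at 3000 ppm by 1.09, while at 4000 ppm Ctrl rose 2.29-fold and Cela1 fell by 0.60. The summed signals of the pancreas markers were 4758 to 6408 at 3000 ppm and 3679 to 5317 at 4000 ppm against 5742 to 7692, and the Ctrl and Cela1 calls were lost in 9 of 18 and 9 of 19 alternatives. The Cpb1 call was lost in 4 of 18, over which its difference ranged from 0.47 to 1.73. The lung marker Scgb1a1 was called lower at both doses and Sftpc at 4000 ppm, calls lost without control replicate 4. No lymphocyte, neutrophil, bile duct or adipose marker was called. The part of these cell types in the gene lists above was not tested.

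Several of the largest changes lay outside the lists. Nat8, an acetyltransferase of cysteine conjugates, had signals of 368, 273, 516, 112 and 315 in the controls, of 1349, 1050, 1476 and 1885 at 3000 ppm and of 1526, 771, 1353 and 1658 at 4000 ppm. It rose by 2.23 ± 0.37 (adjusted p = 1.1e-05) and 2.09 ± 0.37 (adjusted p = 2.1e-05), and its relative Nat8f5 by 2.33 and 2.21. The mean at 2000 ppm, 1422, was as high. Prss8, a membrane serine protease, rose by 2.18 ± 0.38 at each dose (adjusted p = 4.7e-05 and 1.9e-05). Rgs16, a regulator of G protein signals, rose by 2.94 ± 0.77 at 4000 ppm (adjusted p = 0.0097), with 2081, 4070, 7369 and 13513 against 317, 353, 731, 898 and 2018, a call lost without replicate 4 of that dose and with either of the other control sets.

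Among the falls, Rcan2, a calcineurin regulator, fell by 2.58 ± 0.34 (adjusted p = 4.1e-08) and 2.72 ± 0.34 (adjusted p = 2.9e-09), from 459 to 887 in the controls to 20 to 223 and 14.3 to 272. Lonrf3, a ring finger protein gene, had signals of 376, 440, 284, 508 and 425 in the controls, of 94.8, 78.3, 86.9 and 19.1 at 3000 ppm and of 41.7, 98.8, 57.3 and 44.6 at 4000 ppm. It fell by 2.38 ± 0.32 (adjusted p = 4.1e-08) and 2.47 ± 0.32 (adjusted p = 4.9e-09), though a second probe set, at -0.57 and -0.66, was not called. At 2000 ppm it overlapped the controls, at 304, 371, 259 and 201, and the difference between the high doses and 2000 ppm was -1.93 ± 0.29 (adjusted p = 5.2e-06). Loxl4, a lysyl oxidase, fell by 1.41 ± 0.41 (adjusted p = 0.021; lost in 8 of 19 alternatives) and 3.13 ± 0.41 (adjusted p = 5.9e-09) and differed from 2000 ppm by -2.03 ± 0.37 (adjusted p = 5.1e-04). Choline kinase Chka fell by 0.77 ± 0.18 (adjusted p = 0.0031) and 1.80 ± 0.18 (adjusted p = 1.7e-13), and its difference between doses was -1.02 ± 0.19 (adjusted p = 0.0021).

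The stress gene Gadd45a separated the high doses from 2000 ppm without a call against the controls. Its signals were 132, 132, 54.4, 153 and 123 in the controls, 90.5, 53, 16.1 and 9.9 at 2000 ppm, 163, 267, 159 and 151 at 3000 ppm and 269, 175, 97.7 and 226 at 4000 ppm. The difference from 2000 ppm was 1.95 ± 0.29 (adjusted p = 4.2e-06), while 0.60 at each dose against the controls was not called. Between the high doses, the largest rises at 4000 ppm against 3000 ppm were Amer2 (1.61 ± 0.34, adjusted p = 0.011), the lysozyme Lyz1 (1.35 ± 0.31, adjusted p = 0.027) and Exd2 (1.30 ± 0.27, adjusted p = 0.0087). The myeloid receptors Adgre4 (1.08 ± 0.22, adjusted p = 0.0087) and Clec4n (1.05 ± 0.23, adjusted p = 0.021) followed. These calls were lost in 5 of 14 alternatives for Amer2 and, of 15, in 8 for Lyz1 and Clec4n and 4 for Exd2 and Adgre4. Lyz1, Exd2 and Adgre4 had fallen at 3000 ppm and were not called at 4000 ppm. Amer2 and several of the falls, such as Lelp1 and Htr1a, had signals near or below 100 on most arrays, where single values are uncertain.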

How the data were processed

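Values are the authors' deposited array intensity, 1 signal per probe set, made with GCOS 1.0 per the submitters' processing notes. The values of 240 of the 242 arrays had a trimmed mean of 500, with 2% trimmed at each end. The other 2, of which 1 vanadium pentoxide array was in the run, were rescaled to it, and none of these was among the 13 arrays compared. Of 45101 probe sets in all, 34945 had 1 gene symbol, 10092 had none or several and were left out, and 64 were control sets. For 9010 genes with several probe sets, the one with the highest mean over the 242 arrays stood for the gene. Each array has a 20th percentile of signal, and their median, 17.3, was added as a constant before log2. limma 3.58.1 in R 4.3.3 fitted 1 mean per group over the 134 arrays of the run in 32 groups, with two-sided tests and Benjamini-Hochberg adjustment over all 18193 genes. Replicates are separate mice by the labels, numbered in accession order. The number of arrays limits the precision. A promoter motif was counted once per gene. Code was tested on simulated data. Figures were drawn with matplotlib 3.10.9 in Python 3.11.15, and pandas 2.3.3 with numpy 2.4.6 handled the tables.

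The groups and the 35 lists, with 601 genes of which 66 were not measured, were chosen with earlier results of these data known. The lung markers formed a separate list outside these 35. Named genes were the 10 largest rises and falls at each dose for which no treated array crossed the mean of the controls, up to 3 called members of each list, the 5 largest of the other comparisons and fixed sentinel genes. Not all genes so chosen are described above. At 3000 ppm those left out include A530088E08Rik (2.49), Caskin1 (1.90), Fbxw24 (1.90) and Fmo2 (-2.25). Further members of the lists named, as well as Stat5a, Stat5b, Chka and the genes not called, were chosen after their values were seen. Alternatives covered normalisation, dim genes, the constant, probe sets, which arrays enter the fit, the control set and each array left out.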

Additional observations from a re-analysis of the deposited data

Results flagged for a closer look

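In a group of 4 or 5 arrays an array was marked when its gap to the nearest fellow made up most of the group's range, which chance does in about 1 in 20 groups. Since many genes were examined, some of these marks would arise by chance. Among the air controls, replicate 4 had Saa1 at 29439 (others 2520 to 4993), Lyz1 at 6484 (others 2743 to 3156) and Loxl4 at 212 (others 418 to 524), and it was the array with the most lung transcripts. Control replicate 5 had A530088E08Rik at 77.4 (others 13.7 to 24.6), Phlda3 at 240 (others 200 to 206) and Ampd1 at 41.9 (others 4.86 to 7.58). Control replicate 3 had Rsad2 at 335 (others 641 to 828) and Gadd45a at 54.4 (others 123 to 153), and control replicate 1 had Hmox1 at 311 (others 232 to 247).

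At 3000 ppm, replicate 4 had Lonrf3 at 19.1 (others 78.3 to 94.8), replicate 3 had Scgb1a1 at 93.2 (others 8.72 to 11.5) and A530088E08Rik at 117 (others 254 to 294), replicate 2 had Apcs at 14728 (others 9221 to 9983) and Gadd45a at 267 (others 151 to 163), and replicate 1 had G6pc at 22093 (others 8897 to 9763). At 4000 ppm, replicate 4 had Arntl at 38.1 (others 493 to 521) and Igfbp1 at 1327 (others 4922 to 6252). Replicate 1 had Abcb11 at 4890 (others 8611 to 8713), Aurkb at 4.36 (others 52.7 to 57.5) and Aen at 1011 (others 671 to 705). Replicate 2 had Cyp2b9 at 17609 (others 9751 to 10268) and Rbakdn at 32.3 (others 9.43 to 11.2), and replicate 3 had Serpina3i at 253 (others 101 to 105).

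The 2 doses differed from each other by limma's test of 4000 against 3000 ppm for these genes, chosen by the rule for named genes, while Nfil3, Chka, Stat5a and Stat5b, also called, stand in the report. On the log2 scale the differences were -2.14 for Npas2, -2.06 for Lelp1, -1.89 for Adam5, -1.80 for Htr1a, -1.49 for Rbakdn and -0.60 for the metal transporter Slc30a10. They were 1.61 for Amer2, 1.35 for Lyz1, 1.30 for Exd2, 1.08 for Adgre4 and 1.05 for Clec4n. Of 14 alternatives the call was lost in 10 for Adam5 and Rbakdn, 9 for Htr1a and 4 for Lelp1, and of 15 in 10 for Slc30a10.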

How the results depend on the processing

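No paired analysis was possible because the labels give the groups no shared replicate numbers. In the order 3000 ppm against control, 4000 ppm against control, 4000 against 3000 ppm and the high doses against 2000 ppm, the counts of called genes were 554, 531, 27 and 33. With only the groups compared they were 20, 34, 0 and 1. ACO3 against ACO4 then gave 1 in place of 0 and ACO5 against ACO4 0 in place of 23. In these fits limma had far fewer arrays to estimate the spread from, and the part of that in the counts was not tested. With methylene chloride and ACO4 arrays alone the counts were 324, 345, 3 and 11. Over all probe sets, which are more features than the genes, they were 1029, 958, 35 and 65, with 128 in place of 23 for ACO5 against ACO4. The part of the number of features in these counts was not tested. With the vanadium pentoxide array as deposited, an alternative chosen after seeing the data, they were 333, 330, 10 and 20, and the cause was not tested. Other control sets, also chosen after seeing the data, gave 667 (ACO3) and 399 (ACO5) at 3000 ppm and 475 and 554 at 4000 ppm, of which 295, 213, 261 and 291 were among the genes called against ACO4. Without the 8025 dim genes the split at 3000 ppm moved to 190 higher and 313 lower of 503.

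Leaving out 1 array gave 324 (without replicate 4 at 3000 ppm) to 823 genes at 3000 ppm, 381 to 549 at 4000 ppm, 9 to 94 between the doses (lowest without replicate 1 and highest without replicate 2 at 3000 ppm) and 22 to 40 against 2000 ppm. Between the doses the count was 42 without replicate 1 at 4000 ppm, 13 without replicate 3 or 4 of that dose and 16 without replicate 3 at 3000 ppm. ACO3 against ACO4 gave 0 to 4 (highest without ACO4 replicate 4) and ACO5 against ACO4 13 (without its replicate 4) to 39 (without its replicate 1). Of 228 results on named genes 1 reversed, Sdf2l1 at 3000 ppm, at -0.15 with ACO3 as the control. Calls lost numbered 13 under quantile normalisation, 10 and 7 with a constant 4 times lower and higher, 0 of 201 without dim genes, 157 with only the groups compared, 61 with methylene chloride and ACO4 arrays alone and 44 with values as deposited. Of the 169 results against the controls, 44 calls were lost with ACO3, 42 with ACO5 and 16 with the sets pooled. Leaving out single arrays lost a call 324 times in all. Genes near the constant of 17.3, such as Npas2 at 4000 ppm and Ciart in the controls, have log2 differences that depend on it: Npas2 ranged from -4.01 to -1.87 over the alternatives.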
